A study of Rattus norvegicus with 48 samples.

Results

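The miR-34 family of the rat liver was examined through the 6 mature miRNAs whose names begin with rno-miR-34a-, rno-miR-34b- or rno-miR-34c- in the deposited count table. These are both arms, 5p and 3p, of 3 hairpins. They are 6 of the 764 mature miRNAs listed and 6 of the 664 with at least 1 read. The comparison at issue was between the 2 miR-34a arms and the 4 arms of miR-34b and miR-34c, which come from a different chromosome.

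Thioacetamide (TAA) is an organosulfur compound that damages the liver after metabolic activation in hepatocytes and is used in rats as a model of liver injury, fibrosis and liver cancer. Male Sprague-Dawley rats received TAA once daily at a low dose of 4.5 mg/kg, a middle dose of 15 mg/kg or a high dose of 45 mg/kg over 3, 7, 14 or 28 days, time points written here as 3-d to 28-d. Control rats received vehicle alone for the same periods. Small RNA of the whole liver was sequenced from 3 rats of each of the 16 groups, 48 libraries in all, and the age of the rats is not given in the sources used here. All libraries are bulk liver RNA, in which fewer cells of a type and less RNA per cell cannot be told apart.

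A miRNA is cut from a hairpin and guides a silencing complex to messenger RNAs, mainly through its seed, bases 2 to 8. Usually 1 arm of the hairpin is kept and the other is mostly degraded. The miR-34 genes are best known as direct transcriptional targets of the tumour suppressor p53. The 5p arms repress mRNAs of cell cycle and survival proteins, among them cyclin-dependent kinases, MET, BCL2 and the deacetylase SIRT1. In the body miR-34a is made in many tissues, whereas miR-34b and miR-34c are known for high levels in lung, testis and ciliated epithelium. The miR-449 family carries the same seed, is made in multiciliated cells and is regulated by the E2F1 transcription factor.

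The mature sequences (RefSeq, GRCr8) show which members can share targets and which could share reads. Capitals mark the seed.

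rno-miR-34a-5p: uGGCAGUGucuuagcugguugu
rno-miR-34b-5p: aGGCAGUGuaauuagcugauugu
rno-miR-34c-5p: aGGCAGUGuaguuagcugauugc
rno-miR-449a-5p: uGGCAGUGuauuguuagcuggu
rno-miR-449c-5p: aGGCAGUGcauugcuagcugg
rno-miR-34a-3p: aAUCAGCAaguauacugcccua
rno-miR-34b-3p: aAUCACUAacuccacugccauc
rno-miR-34c-3p: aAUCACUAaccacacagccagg

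Of the 689 listed mature miRNAs with a sequence in that table, the 5p arms of miR-34a, miR-34b and miR-34c shared their seed with rno-miR-449a-5p and rno-miR-449c-5p and with 0 others. The 3p arms of miR-34b and miR-34c shared a seed with each other, and the seed of rno-miR-34a-3p occurred in 0 other miRNAs. Read base by base, rno-miR-34a-5p differed from rno-miR-34b-5p and from rno-miR-34c-5p at 8 of the first 18 bases and from rno-miR-449a-5p at 6. In contrast, rno-miR-34b-5p and rno-miR-34c-5p were identical at 21 of 23 bases. From rno-miR-34b-5p to rno-miR-34c-5p the substitutions were A11G and U23C, counted from 1 at the 5′ end. Reads could therefore be split between these 2 arms by the counting, how this was handled is not given in the sources used here, and the values of rno-miR-34b-5p in particular are uncertain.

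The hairpins are printed with both mature arms in capitals, to show that each of the 6 members is an arm of 1 of 3 separate precursors.

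Mir34a: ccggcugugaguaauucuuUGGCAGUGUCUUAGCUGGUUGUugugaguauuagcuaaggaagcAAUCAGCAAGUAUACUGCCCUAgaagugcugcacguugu
Mir34b: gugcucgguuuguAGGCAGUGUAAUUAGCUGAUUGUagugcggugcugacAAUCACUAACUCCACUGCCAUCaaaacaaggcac
Mir34c: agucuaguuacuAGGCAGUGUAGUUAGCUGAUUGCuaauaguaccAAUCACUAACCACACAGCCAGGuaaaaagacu

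In GRCr8 the miR-34a hairpin lies on the plus strand of chromosome 5 (chr5:165815952-165816053). The hairpins of miR-34b (chr8:60306609-60306692) and miR-34c (chr8:60306091-60306167) lie on the minus strand of chromosome 8 with 441 bases between them.

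Library totals ran from 4829217 to 14906217 counts in 47 libraries. The remaining library, control 3-d replicate 1, held 293331 counts. The limit of detection was set at 3 reads, which in that library equals 10.2 RPM (reads per 1000000 reads counted), and 3 marker miRNAs of red blood cells summed to 98039 RPM against at most 6666 RPM in the other controls. Agreement between replicates was measured as the chi-square of their counts per miRNA, which had a median of 240.1 over the 46 pairs of replicates without that library. Of the libraries singled out here, high dose 3-d replicate 24 stood apart from replicates 22 and 23 (904 and 1061, against 278 between those 2). Low dose 28-d replicate 29 did so from replicates 28 and 30 (1758 and 1643, against 136). Other libraries also agreed poorly. The 3 pairs of high dose 7-d rats had 1252, 884 and 967, and middle dose 3-d replicate 12 had 801 and 717 (334 between replicates 10 and 11). Several results that rest on the shallow library are given with and without it. Among those given only with it are the adjusted p-values at 3-d and the 3-d fits without a minimum. The comparisons of the controls over time are also given only with it. The hepatocyte list (miR-122-5p, miR-192-5p and miR-148a-3p), summed, had medians of 288956 RPM in the controls and 311989 RPM in the TAA libraries. It ran from 263496 to 366006 RPM in the TAA libraries and from 146824 to 306852 RPM in the controls, the shallow library included. Of its 3 markers 0 was at 0. The 4 leukocyte miRNAs had medians of 3434 RPM in the controls and 3400 RPM in the TAA libraries, the 4 of stellate and smooth muscle cells 41551 and 42708 RPM, and the 5 of biliary and other epithelium 970 and 817 RPM. The part of these lists in the results below was not tested.

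In all, 2 arms held most of the family's reads. rno-miR-34a-5p and rno-miR-34c-5p together made up a median of 97.9% of the reads of the 6 arms, with a range of 70.6% to 99.4% over the 48 libraries. Summed over all libraries, rno-miR-34a-5p had 142735 reads, rno-miR-34c-5p 22068, rno-miR-34b-5p 1524, rno-miR-34b-3p 683, rno-miR-34a-3p 533 and rno-miR-34c-3p 312. A count of 3 reads or fewer was found in 16 of the 48 libraries for rno-miR-34a-3p, in 13 for rno-miR-34c-3p and in 1 each for rno-miR-34b-5p and rno-miR-34b-3p. It was found in 0 libraries for rno-miR-34a-5p and rno-miR-34c-5p. These 2 were also the only arms that passed the minimum of 5 RPM in at least 3 libraries, so that 2 of the 6 members entered the edgeR tests, among 301 tested miRNAs.

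rno-miR-34a-5p, the guide arm of miR-34a, was low in every control liver and higher in nearly every TAA liver. The 12 controls lay between 14.1 and 56.6 RPM with a median of 28.1 RPM, and the 36 TAA libraries between 28.8 and 887 RPM with a median of 331 RPM. By abundance it ranked between 157 and 213 in the controls and between 52 and 179 in the TAA libraries. In 34 of the 36 TAA libraries it was above the highest control.

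**Figure D1:**
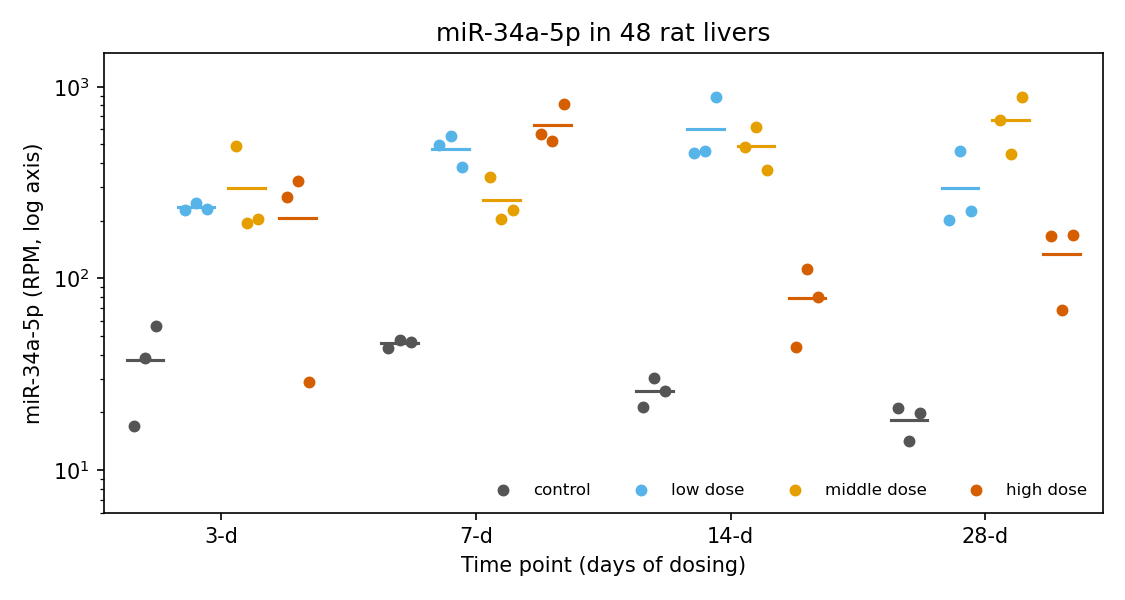
Level of miR-34a-5p in each of the 48 libraries (points, RPM on a log axis) by time point and dose, with the mean of the 3 rats of a group as a line. Controls lie between 14.1 and 56.6 RPM, while high dose 3-d replicate 24 (28.8 RPM) and a high dose rat at 14-d (44.05 RPM) are the lowest TAA values.

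At 3-d, the controls had 17.05, 38.3 and 56.6 RPM of rno-miR-34a-5p, the first of these from 5 reads in the shallow library. The low dose rats had 228, 248 and 231 RPM and the middle dose rats 489, 194 and 203 RPM. With the high dose, 266 and 323 RPM were found in replicates 22 and 23, but 28.8 RPM, from 381 reads, in replicate 24. The latter lay within the range of the 3-d controls, so that the high dose at 3-d was the only one of the 12 conditions in which the groups overlapped.

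At 7-d, the controls were close together at 43.3, 47.7 and 46.5 RPM. The low dose gave 496, 551 and 380 RPM, the middle dose 339, 204 and 228 RPM and the high dose 567, 519 and 817 RPM. Each of these 9 livers was above every control, and the middle dose rats were below all rats of the other doses.

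At 14-d, the controls had 21.2, 30.2 and 25.95 RPM. The low dose rats had 453, 462 and 883 RPM and the middle dose rats 483, 616 and 368 RPM. The high dose rats had 44.05, 112 and 80.0 RPM, above the controls and below all 6 other TAA rats of this time point.

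At 28-d, the controls had 21.1, 14.1 and 19.8 RPM, the lowest mean of the 4 control groups. The low dose gave 201, 462 and 223 RPM and the middle dose 670, 445 and 887 RPM. The high dose gave 166, 68.1 and 169 RPM, again below every low and middle dose rat of the same time point.

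In order of the group means, the 4 control groups were lowest, with 18.3 ± 3.72 RPM (SD, n = 3) at 28-d and 45.8 ± 2.24 RPM at 7-d at the ends of their range. The high dose groups at 14-d (78.8 ± 34.1 RPM), 28-d (135 ± 57.5 RPM) and 3-d (206 ± 156 RPM) came next. The highest means were those of the low dose at 14-d (599 ± 246 RPM), the high dose at 7-d (634 ± 160 RPM) and the middle dose at 28-d (668 ± 221 RPM). Of the 15 pairs of neighbours in this order, 14 had overlapping values. The exception was the step from the 28-d to the 14-d controls. Among the controls alone, the level of rno-miR-34a-5p over the 4 time points did not pass the test (edgeR quasi-likelihood test, adjusted p = 0.240), in a comparison that called 33.6% of the 301 tested miRNAs.

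Each condition was tested against its 3 time-matched controls, and a miRNA was called when the unadjusted p-value was below 0.05 and the fold change above 1.5. rno-miR-34a-5p was called higher in 12 of 12 conditions. At 3-d, 9.97%, 1.66% and 6.98% of the tested miRNAs were called higher with the low, middle and high dose, and 18.3%, 12% and 17.9% at 7-d. Of the later time points, 14-d gave shares of 22.9%, 12% and 5.65%, and 28-d of 3.65%, 20.9% and 13%. In 11 conditions all 3 TAA values were above all 3 control values, which 24.2% of all pairs of a tested miRNA and a condition showed. When the Benjamini-Hochberg adjusted p-value had to be below 0.05 instead, rno-miR-34a-5p was called in 8 conditions, against 7.70% of all such pairs. Lacking an adjusted call were the 3 doses at 3-d (edgeR adjusted p = 0.0603, 0.329 and 0.400 for the low, middle and high dose) and the high dose at 14-d (0.0785). At 3-d, 0 of the 301 miRNAs had an adjusted call at any dose in these fits of 6 libraries. By unadjusted p-value and fold change, 50, 9 and 34 were called. With the low dose at 28-d, rno-miR-34a-5p was the 1 miRNA called higher with an adjusted p-value (0.0137 by edgeR), and this was lost without any 1 of the 3 controls (highest adjusted p = 0.229). Adjusted calls depended on single libraries, with 7 to 9 conditions called when 1 was left out. For the low dose at 3-d the unadjusted edgeR p-value then ran from 3.34e-06 to 0.00349. Adjusted p-values at 3-d without the shallow control are not given here. The missing calls also depended on the test. In a single edgeR fit of all 48 libraries the adjusted p-values at 3-d were 0.000268, 0.00129 and 0.00116 for the low, middle and high dose. In that fit the high dose at 14-d had 0.276. With TMM normalization in the 6-library edgeR fits, the 3-d values were 0.0575, 0.489 and 0.384.

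By log2 fold change, rno-miR-34a-5p took the first place among the 301 miRNAs in 4 conditions and the second place in 5. The high dose at 3-d and at 14-d held its lowest places, 6 and 7. The fold change was highest with the middle dose at 28-d (29.4-fold, log2 4.88 with a standard error of 0.30) and the low dose at 14-d (25.9-fold, log2 4.70, standard error 0.30). It was lowest with the high dose at 14-d (2.64-fold, log2 1.40, standard error 0.33). Without the shallow 3-d control the log2 fold changes at 3-d were 2.48, 2.57 and 2.07 in place of 2.79, 2.89 and 2.40, all still called. Leaving out high dose 3-d replicate 23 removed the call of that condition (log2 1.96, edgeR unadjusted p = 0.0594), and leaving out replicate 24 raised the log2 fold change to 2.91. Without low dose 28-d replicate 29, that condition had a log2 fold change of 3.22 in place of 3.87, still called.

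Over all doses together, the mean of log2(RPM + 0.5) of rno-miR-34a-5p was 3.27 higher in TAA rats than in controls, averaged over the time points, and 35 of 36 rats were above the control mean of their time point (p = 1e-05, the smallest that 100000 permutations within time points can give, two-sided). The difference was 2.60 at 3-d and 3.18 at 7-d, with 3.39 and 3.92 for 14-d and 28-d. The exact permutation p-values of 9 against 3 rats were 0.0136 at 3-d and 0.00455, the smallest possible, at the later time points. Without control 3-d replicate 1 the 3-d difference was 2.12 with an exact p-value of 0.0545.

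To compare doses and time points with each other, 24 contrasts were drawn from an edgeR fit of all 48 libraries, with p-values adjusted over 301 miRNAs and 24 contrasts. In these, 5.63% of all tests passed an adjusted p-value of 0.05. rno-miR-34a-5p passed in 4, and each of them involved the high dose at 14-d or 28-d. At 14-d the high dose was below the low dose by a log2 difference of -3.29 (standard error 0.52, edgeR adjusted p = 0.000347) and below the middle dose by -2.67 (standard error 0.50, edgeR adjusted p = 0.00287). At 28-d it was below the middle dose by -2.09 (standard error 0.49, edgeR adjusted p = 0.0112). Without high dose 28-d replicate 20, the rat with 68.1 RPM, this difference was -1.78 and missed the threshold (edgeR adjusted p = 0.0526). Between 7-d and 14-d the treatment effect of the high dose changed by -2.33 (standard error 0.68, edgeR adjusted p = 0.0374). That contrast was lost in 8 of the 48 fits without 1 library and had the values 634 ± 160 RPM at 7-d and 78.8 ± 34.1 RPM at 14-d behind it. Low and middle dose did not pass a test against each other at any time point, the nearest being a log2 difference of -1.11 (standard error 0.48) for middle minus low dose at 7-d.

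rno-miR-34a-3p is the other arm of the same hairpin and was close to the limit of detection. The controls had 0 to 4 reads, with a median of 0.109 RPM, and 10 of 12 were at or below 3 reads. The TAA libraries had 1 to 39 reads, with a median of 1.20 RPM, and 6 of 36 were at or below 3 reads. Of these 6, 3 were the high dose rats at 14-d with 1, 2 and 3 reads.

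The highest rno-miR-34a-3p values were the 39 and 37 reads of high dose 7-d replicates 25 and 26 (3.61 and 2.48 RPM), and replicate 27 of that group had 8 reads. In 29 of 36 TAA libraries the level was above the highest control of 0.522 RPM. On the scale of log2(RPM + 0.5) the TAA rats were higher by 1.39, with 35 of 36 above the control mean of their time point (p = 1e-05, the smallest that the permutations can give). The pseudocount lies above most control values, so that this difference understates the change and depends on the pseudocount. It was 2.51 with a pseudocount of 0.1 RPM and 0.60 with 2 RPM (permutation p = 1e-05 and 2e-05). At 28-d, where 2 controls had 4 reads each, the difference was 1.03 with an exact permutation p-value of 0.0591.

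With the minimum dropped and all 664 detected miRNAs tested, rno-miR-34a-3p was called higher in 10 of 12 conditions, and in 6 with an adjusted p-value. In that analysis 6.16% of all pairs of a miRNA and a condition were called higher and 6.05% lower, by unadjusted p-value and fold change. The share called with an adjusted p-value is not given here. The 2 conditions without a call were the high dose at 14-d (log2 0.72, standard error 1.13) and at 28-d (log2 1.13, standard error 0.75). These were also 2 of the 3 TAA groups with the lowest mean of the 5p arm.

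Across the 36 TAA libraries, the log2(RPM + 0.5) values of both miR-34a arms had a Pearson's r of 0.816 and a Spearman's rho of 0.762 (permutation p = 1e-05 for each, the smallest possible). Without the 2 libraries farthest from the median of rno-miR-34a-5p, r was 0.749. The deviations from the 12 group means gave an r of 0.750 and a rho of 0.714, so that rats of the same group with more of the 5p arm also had more of the 3p arm. Both values of a library share its total count.

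**Figure D2:**
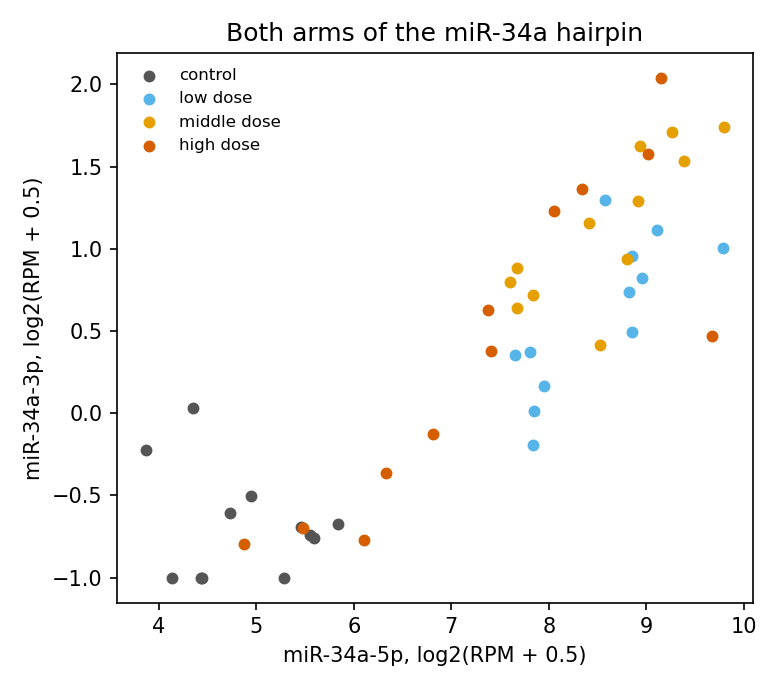
miR-34a-5p (x axis) against miR-34a-3p (y axis), both as log2(RPM + 0.5), 1 point per library, coloured by dose. The 36 TAA libraries have a Pearson's r of 0.816, and most controls lie at the lower left with 0 to 4 reads of the 3p arm.

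The balance of the arms was examined on summed reads. The 3p arm held 0.439% of the reads of the miR-34a hairpin in the controls (16 of them 3p reads, exact 95% binomial interval 0.251% to 0.712%) and 0.370% in the TAA libraries (517 reads, 0.339% to 0.404%). The intervals overlap and cover counting error only. Within libraries, log2 of the ratio of 5p to 3p reads, each with 0.5 added, was 0.72 higher in TAA rats (permutation p = 0.0533). It was 1.15 higher with 1 read added (permutation p = 0.00199) and 0.27 higher without control 3-d replicate 1 (permutation p = 0.409). The controls held 16 reads of the 3p arm in all. Without control 28-d replicate 16 it was 1.06 (permutation p = 0.00581).

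rno-miR-34c-5p, the guide arm of miR-34c, had a higher median than rno-miR-34a-5p in the controls, and its values in controls and TAA rats overlapped. The 12 controls lay between 14.2 and 62.8 RPM (median 47.7 RPM) and the 36 TAA libraries between 29.5 and 70.3 RPM (median 44.6 RPM). The ratio of rno-miR-34a-5p to rno-miR-34c-5p had a median of 0.695 in the controls and 7.57 in the TAA libraries. Across all rats the difference in log2(RPM + 0.5) of rno-miR-34c-5p was 0.16, with 20 of 36 TAA rats above the control mean (permutation p = 0.236). This average joined unlike values, which from 3-d to 28-d were -0.007, -0.27, 0.03 and 0.90. Their exact permutation p-values were 0.968, 0.191, 0.914 and 0.0136. Without control 3-d replicate 1 the 3-d value was -0.45 (exact permutation p = 0.0727).

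**Figure D3:**
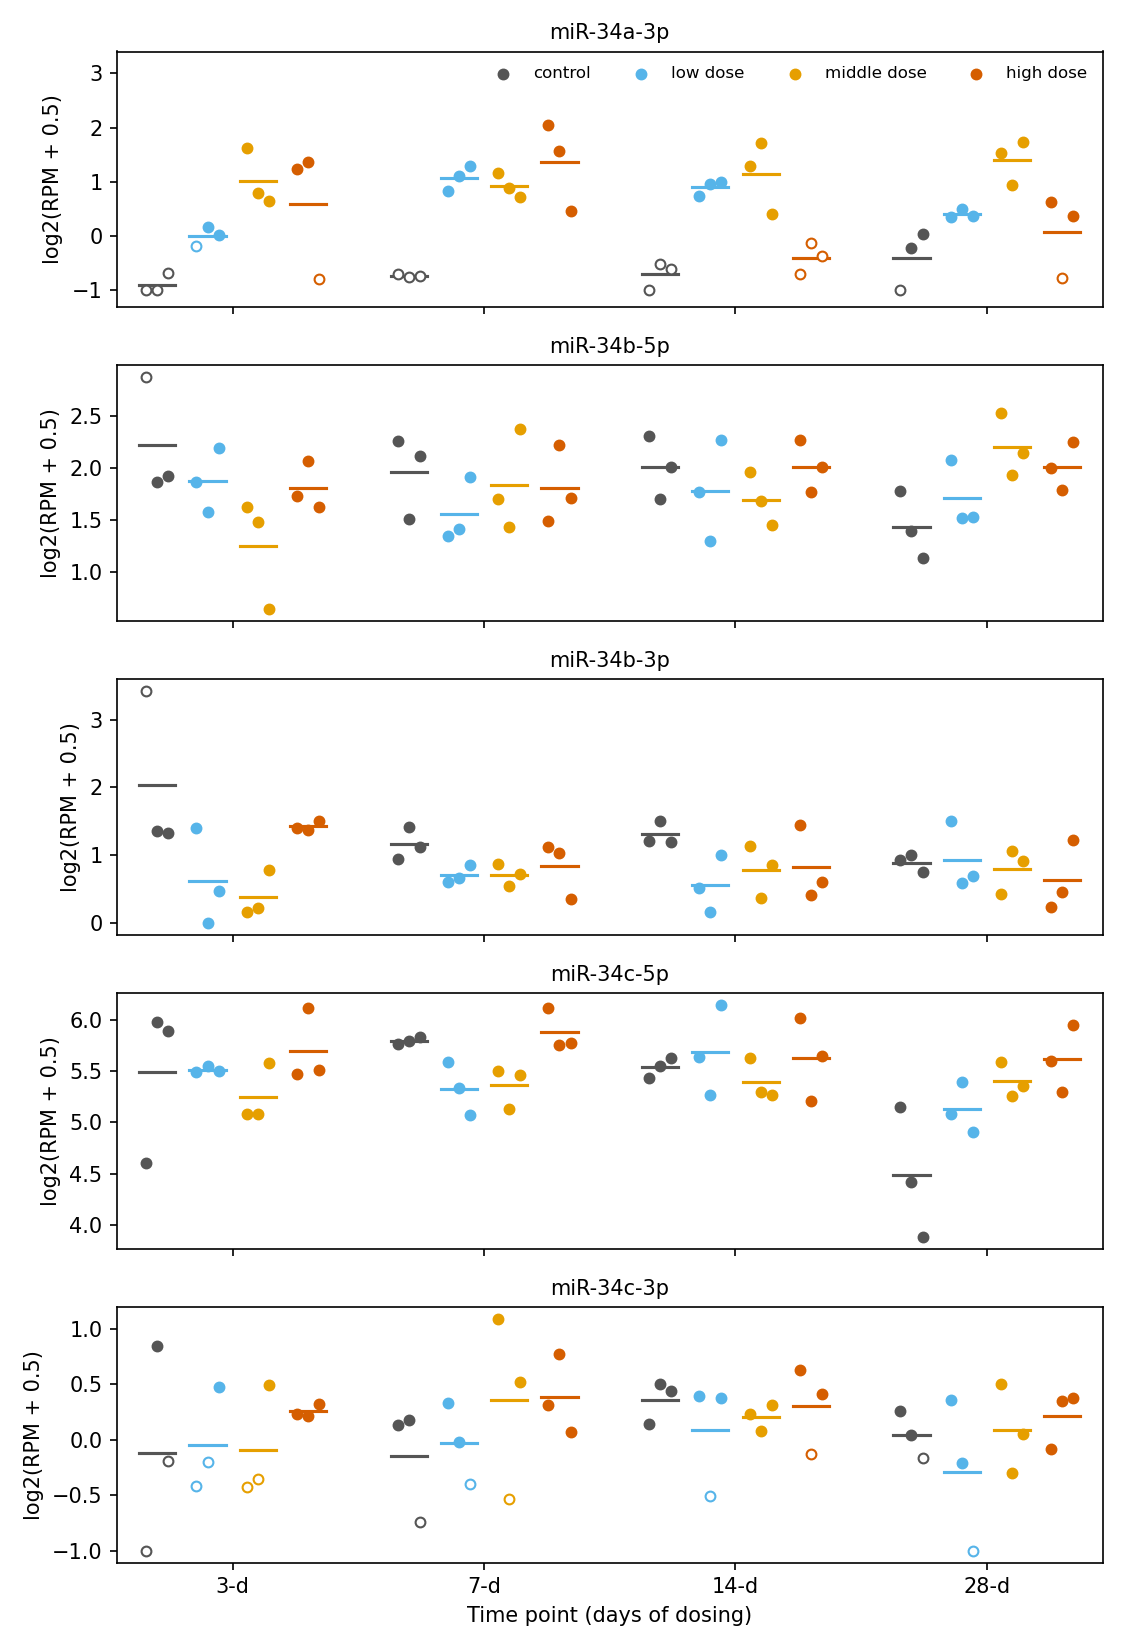
The other 5 arms in each library as log2(RPM + 0.5), by time point and dose, with group means as lines and open points for libraries with 3 reads or fewer. Only miR-34a-3p is separated between controls and most TAA groups, and for miR-34b-5p and miR-34b-3p the highest point is the shallow 3-d control with 2 and 3 reads.

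By condition, the log2 fold change of rno-miR-34c-5p ran from -0.54 to 0.99 with a median of 0.03, above 0 in 7 of 12. It was called in 1 condition, higher with the high dose at 28-d (log2 0.99, standard error 0.32, edgeR unadjusted p = 0.0118, adjusted p = 0.0909). There the TAA rats had 47.9, 38.9 and 61.4 RPM and the controls 34.99, 20.8 and 14.2 RPM. The groups did not overlap, and the call was lost without control 28-d replicate 17 (log2 0.87) or without high dose 28-d replicate 21 (log2 0.78).

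The 28-d controls were themselves low. Over the 4 time points the level of rno-miR-34c-5p in the controls differed (edgeR quasi-likelihood test, adjusted p = 0.0282), and it was lower at 28-d than at 3-d by a log2 difference of -0.90. That comparison called 33.6% of the 301 tested miRNAs. It included the shallow 3-d control, with 7 reads at 23.9 RPM, and was not repeated without it. Against all 12 controls together, the high dose at 28-d was higher by a log2 fold change of 0.25 only. With the 3 doses together at 28-d the difference was 0.90 (exact permutation p = 0.0136), and it missed the threshold without control 28-d replicate 17 (exact p = 0.0545) or 18 (0.60, exact p = 0.0909).

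In the opposite direction, rno-miR-34c-5p was lower with the middle dose at 7-d, with 44.9, 34.5 and 43.6 RPM against 53.8, 54.97 and 56.7 RPM in the controls. This difference (log2 fold change -0.54 with a standard error of 0.13, edgeR adjusted p = 0.0133) was under the 1.5-fold minimum. With every miRNA tested it was -0.62 and called (edgeR adjusted p = 0.000591). The low dose rats at 7-d were also all below the controls (log2 fold change -0.35, edgeR adjusted p = 0.0777). At 28-d the middle dose rats, like the high dose rats, were all above the controls (log2 fold change 0.54, edgeR adjusted p = 0.167). Such a separation upwards was shown by 24.2% of all pairs of a tested miRNA and a condition, and the share downwards is not given here. In the 24 contrasts between doses and time points rno-miR-34c-5p passed the adjusted threshold in 0 cases (smallest adjusted p = 0.113 by edgeR). It passed in 3 of the 24 without control 28-d replicate 16 and in 1 without control 3-d replicate 1.

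rno-miR-34b-5p, which carries the common seed, stayed at a few RPM. Controls had 2 to 45 reads (median 3.21 RPM) and TAA libraries 7 to 75 reads (median 2.90 RPM). The difference in log2(RPM + 0.5) was -0.11 (permutation p = 0.423), and with every miRNA tested it was called in 0 of 12 conditions (smallest unadjusted p = 0.106 by edgeR). At 28-d the TAA rats were higher by 0.54 (exact permutation p = 0.0364), at 0.39 without control 28-d replicate 18 (exact p = 0.164) and with upper quartile normalized RPM (exact p = 0.105). The threshold was also missed without control 28-d replicate 17, low dose replicate 28, middle dose replicate 39 or high dose replicate 21.

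rno-miR-34b-3p was the 1 member whose level over all TAA rats was lower and passed the permutation test. Controls had 3 to 24 reads (median 1.81 RPM) and TAA libraries 4 to 31 reads (median 1.13 RPM), and 19 of 36 TAA libraries were below the lowest control of 1.17 RPM. The difference in log2(RPM + 0.5) was -0.58, with 5 of 36 TAA rats above the control mean of their time point (permutation p = 0.00073). The shallow control had 3 reads, at 10.2 RPM, and without it the difference was -0.41 (permutation p = 0.00681). Without all 3-d libraries it was -0.37 (permutation p = 0.00882). With a pseudocount of 2 RPM it was -0.35 (permutation p = 0.00069).

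Tested without a minimum, rno-miR-34b-3p was called lower in 3 conditions, the middle dose at 3-d and at 7-d and the low dose at 14-d, and in 0 with an adjusted p-value (smallest 0.103 by edgeR). Its differences were -1.23, -0.41, -0.59 and -0.10 from the first to the last time point, with exact permutation p-values of 0.0727, 0.0364, 0.05 and 0.700. The value at 3-d rested on the shallow control and was -0.53 without it (exact p = 0.418). The value at 7-d was lost without control replicate 5 (-0.28, exact p = 0.145) or 6 or low dose replicate 46. High dose 3-d rats, at 2.14, 2.08 and 2.34 RPM, were not below the 2 deeper 3-d controls at 2.06 and 2.02 RPM.

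rno-miR-34c-3p was at 0 to 12 reads in the controls and 0 to 18 reads in the TAA libraries, at or below 3 reads in 4 of 12 and 9 of 36. Its medians were 0.601 and 0.679 RPM. The difference in log2(RPM + 0.5) was 0.08 (permutation p = 0.580) and -0.027 without control 3-d replicate 1 (permutation p = 0.864). No difference was detected.

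The arm shares of the miR-34b and miR-34c hairpins differed widely from each other. In the controls the 3p arm held 36.3% of the miR-34b reads (201 reads, exact 95% binomial interval 32.3% to 40.4%) but 1.43% of the miR-34c reads (73 reads, 1.12% to 1.79%). In the TAA libraries these shares were 29.2% (26.98% to 31.4%) and 1.38% (1.22% to 1.57%). Within libraries, log2 of the ratio of 5p to 3p reads of miR-34b was 0.61 higher in TAA rats, above the control mean in 31 of 36 (permutation p = 0.00424), a comparison added after the data had been seen. It was 0.52 without control 3-d replicate 1 (permutation p = 0.0204). For miR-34c the ratio was 0.33 higher (permutation p = 0.291). Since reads of the miR-34b and miR-34c 5p arms could be exchanged, both shares carry the uncertainty named above.

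The miR-34a arms and the miR-34b and miR-34c arms were then compared within each library, where the total count cancels. In the controls, miR-34a made up 29.4% to 53.8% of the family's reads, with a median of 36.7%. In the TAA libraries it made up 36.2% to 95.1%, with a median of 87.1%. The values at 7-d show the separation. The 3 controls had 41.95%, 44.3% and 42.8%, and the 9 TAA rats lay between 82.0% and 93.3%.

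Log2 of the ratio of miR-34a reads to miR-34b and miR-34c reads, each with 0.5 added, was 3.20 higher in TAA rats and above the control mean in 35 of 36 (p = 1e-05, the smallest that the permutations can give). Without control 3-d replicate 1 it was 3.14. From 3-d to 28-d the difference was 2.81, 3.46, 3.42 and 3.09. Without control 3-d replicate 1 the 3-d value was 2.59 (exact permutation p = 0.0364). With all libraries the exact permutation p-value was 0.00909 at 3-d and 0.00455, the smallest possible, at the others. The separately encoded arms thus differed in their mean change after TAA, while TAA and control rats overlapped in this ratio at 3-d. Since rno-miR-34a-5p and rno-miR-34c-5p held a median of 97.9% of the family's reads, the ratio mainly compares these 2 arms.

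**Figure D4:**
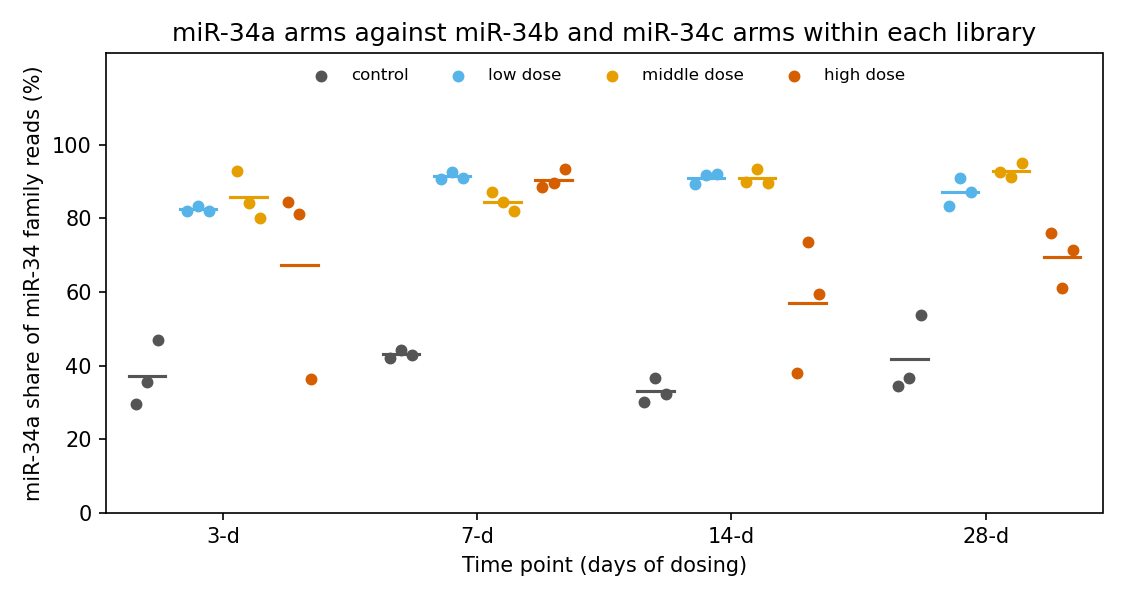
Share of miR-34a reads (both arms) among all reads of the 6 miR-34 arms in each library, in percent, by time point and dose, with group means as lines. Controls lie between 29.4% and 53.8%, the low and middle dose groups between 80.2% and 95.1%, and the high dose groups at 14-d and 28-d between 38.1% and 76.1%.

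The share was lower in the high dose groups in which rno-miR-34a-5p was low. It was 38.1% to 73.5% at 14-d and 61.1% to 76.1% at 28-d, against 89.4% to 93.5% and 83.4% to 95.1% in the low and middle dose rats of these time points. High dose 3-d replicate 24 had 36.2%, within the range of the controls, and the other rats of its group had 84.4% and 81.2%. Its rno-miR-34c-5p level was 45.1 RPM, against 43.96 and 68.7 RPM in replicates 22 and 23. This library held 13230394 counts, and its 381 reads of rno-miR-34a-5p are far above the limit of detection.

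Outside the 6 arms, rno-miR-449a-5p is the miRNA with the same seed that could be tested. It comes from a hairpin on chromosome 2 (chr2:46403910-46404000, plus strand), 1436 bases from that of miR-449c. The controls had 1 to 37 reads (median 2.88 RPM) and the TAA libraries 16 to 88 reads (median 4.53 RPM). In 22 of 36 TAA libraries it was above the highest control of 4.04 RPM.

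rno-miR-449a-5p was called higher in 6 of 12 conditions, and in 4 with an adjusted p-value, with a median log2 fold change of 0.74 and a range of 0.12 to 1.67. The highest was the middle dose at 28-d (log2 1.67, standard error 0.26, edgeR adjusted p = 0.00102), with 5.63, 4.88 and 5.82 RPM against 1.32, 1.68 and 1.17 RPM in the controls. Over all TAA rats the difference in log2(RPM + 0.5) was 0.74, above the control mean in 33 of 36 (p = 1e-05, the smallest that the permutations can give), in a test added to those of the miR-34 arms. At 3-d it was 0.17 (exact permutation p = 0.605). In the controls it was lower at 28-d than at 3-d by a log2 difference of -1.26 (edgeR quasi-likelihood test over the 4 time points, adjusted p = 0.0381). That comparison called 33.6% of the 301 tested miRNAs, and the shallow 3-d control in it had 1 read of rno-miR-449a-5p. High dose 3-d replicate 24 was low in this miRNA as well, with 1.81 RPM against 6.99 and 8.31 RPM in replicates 22 and 23. rno-miR-449c-5p was at or below 3 reads in 10 of 12 controls and 21 of 36 TAA libraries.

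**Figure D5:**
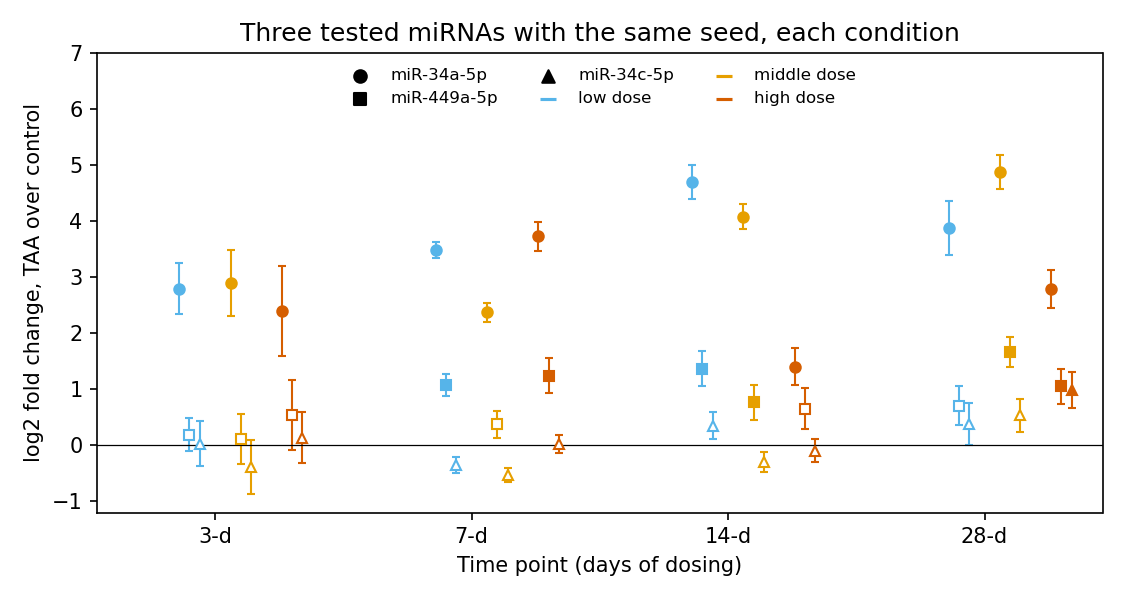
Log2 fold change over the time-matched controls (y axis, bars are standard errors, 3 against 3 rats) of the 3 tested miRNAs with the miR-34 seed, by time point and dose. Filled symbols mark a call. miR-34a-5p is filled throughout, between 1.40 and 4.88, miR-449a-5p in 6 conditions and miR-34c-5p in 1.

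The miRNAs whose levels were most like those of rno-miR-34a-5p were found by Spearman's rho of upper quartile normalized RPM over the 48 libraries, which share the contrast of TAA and control. The 5 highest were rno-miR-6329 (0.89), rno-miR-7a-5p (0.87), rno-miR-3559-5p (0.85), rno-miR-190b-5p (0.83) and rno-miR-449a-5p (0.81). Within the 36 TAA libraries alone these values were 0.81, 0.75, 0.80, 0.77 and 0.70. rno-miR-34c-5p, of the same family, had a rho of 0.07 and place 153.

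A list of other miRNAs linked to p53, through transcription or processing, or sharing the miR-34 seed was called about as often as all tested miRNAs. The list held 12 names, of which 10 were tested. They were called higher in 14 of 120 pairs of a miRNA and a condition (11.7%, against 12.1% of all tested miRNAs) and lower in 5 (4.17%, against 5.98%). Of the 14 higher calls, 6 were of rno-miR-449a-5p, which is in the list through its seed. The others were of rno-miR-200c-3p (4), rno-miR-107-3p (3) and rno-miR-16-5p (1). The 11.7% therefore includes the calls of rno-miR-449a-5p, and the share of the list without it is not given here. The median of their median log2 fold changes was 0.04, and 0.05 for all tested miRNAs.

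Of this list, rno-miR-449a-5p was the 1 member called in at least 6 conditions in a single direction, and of all 301 tested miRNAs 16 were called higher and 2 lower that often. rno-miR-200c-3p, an epithelial miRNA, was called higher in 4 conditions, rno-miR-107-3p, encoded in a pantothenate kinase gene, in 3 and rno-miR-16-5p, known to target cyclins, in 1. rno-miR-145-5p, abundant in smooth muscle, was called lower in 4 and rno-miR-141-3p, another epithelial miRNA, in 1. For rno-miR-192-5p, rno-miR-194-5p, rno-miR-143-3p and rno-miR-15a-5p there were 0 calls, as for 70 of the 301 tested miRNAs. rno-miR-192-5p, abundant in hepatocytes, had medians of 191416 RPM in the controls and 216616 RPM in the TAA libraries.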

How the data were processed

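The table analysed here holds raw read counts per mature miRNA and precursor for 48 rat liver libraries, 3 separate rats in each of 16 groups. The authors counted reads with miRDeep2 against miRBase release 21, after adaptor removal and a length selection of 18 to 25 bases, and deposited the counts without normalization, filtering or pooling. The submitters' processing notes name FastQC and the genome build rn5. The counting allowed a mature miRNA to be listed under several precursors, and the precursor with the most reads was kept. RPM divides by the total of these counts. Library totals were 293331 to 14906217 counts (median 10237542). Intervals and limits cover counting error only, since reads carry no molecular identifiers.

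The members and lists were chosen with earlier results of these data known. miRNAs with at least 5 RPM in at least 3 libraries were tested with the quasi-likelihood F-test of edgeR 4.0.16 under R 4.3.3 (upper quartile normalization, Benjamini-Hochberg adjustment over all tested miRNAs), each condition in a fit of 6 libraries and 24 contrasts in a fit of 48. On simulated counts for the low dose at 7-d, 91 of 91 changed and 7 of 210 unchanged miRNAs were called. These numbers hold for the simulated counts only. How often a difference is missed or wrongly called in the measured counts was not tested. With 3 rats against 3, an exact test cannot go below 0.1, so single miRNAs were tested by permuting TAA and control labels within time points (100000 permutations) or, at a time point, over all 220 assignments, on log2(RPM + 0.5), two-sided, in scipy 1.17.1 and numpy 2.4.6. The replicate numbers 1 to 48 name each library once and pair no samples. Sequences and positions are RefSeq's (GRCr8).

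The miRNAs named are the 6 arms, other miRNAs with the seed of a miR-34 5p arm and the 5 most alike by Spearman's rho. Members of the list of p53-linked or same-seed miRNAs called in at least 6 conditions in a single direction were also named. Other members of that list were named after their values were seen. Alternatives were TMM, DESeq2's size factors, library size alone, no minimum, 5 RPM in every library, the DESeq2 Wald test (DESeq2 1.42.0), the edgeR exact test, pooled controls, a fit of all libraries, other pseudocounts, upper quartile normalized RPM, ratios of the 5p arms alone and each library left out.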

Additional observations from a re-analysis of the deposited data

Results flagged for a closer look

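Treatment effects of rno-miR-34a-5p differed between doses in 3 contrasts. At 14-d the high dose was below the low dose by -3.29 and below the middle dose by -2.67, and at 28-d it was below the middle dose by -2.09 (log2, 3 rats in each group). Between time points, the effect of the high dose differed by -2.33 from 7-d to 14-d. For rno-miR-449a-5p, the effect of the middle dose was higher by 1.57 at 28-d than at 3-d (log2, standard error 0.48, edgeR adjusted p = 0.0450), and this contrast missed the threshold in 33 of the 48 fits without 1 library. These differences were tested as contrasts in a single edgeR fit. The share of miR-34a among the family's reads, in which the total count cancels, was 56.97% ± 17.8 (SD, n = 3) with the high dose at 14-d and 91.1% ± 1.501 with the low dose. The 5 biliary and other epithelium, 4 leukocyte and 3 hepatocyte marker miRNAs were measured in these libraries, and their part in the differences was not tested.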

How the results depend on the processing

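rno-miR-34a-5p was called higher in 12 conditions under all 9 alternative settings of the fits and in 11 or 12 when 1 library was left out. With adjusted p-values it was called in 8 to 11 conditions by setting and in 7 to 9 without 1 library. Its pooled difference stayed between 3.15 and 3.36 and that of miR-34a against miR-34b and miR-34c between 3.14 and 3.29 without 1 library.

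The miR-34b and miR-34c arms were called higher in 2 conditions with library size alone or with 5 RPM in every library, and in 0 with all 12 controls pooled (edgeR), against 1. They were called lower in 4 without a minimum, against 0, but 3 of these 4 calls were of rno-miR-34b-3p, which is tested only without a minimum, and the other was of rno-miR-34c-5p. Leaving out 1 library gave 0 to 3 higher calls, with 0 without control 28-d replicate 17 or high dose 28-d replicate 21 and 3 without control 28-d replicate 16. It gave 0 to 1 lower calls, with 1 without middle dose 7-d replicate 36. Contrasts of rno-miR-34c-5p past the threshold ran from 0 to 3 (3 without control 28-d replicate 16), and those of rno-miR-34a-5p from 3 to 6. The difference of rno-miR-34c-3p ran from -0.027 to 0.20 and was negative only without control 3-d replicate 1. The arm balance of miR-34a ran from 0.27 to 1.06 and passed 0.05 in 10 of these 48 fits, and was 1.15 with 1 read added. The change of the high dose effect from 7-d to 14-d missed the threshold without a minimum (-1.95, edgeR adjusted p = 0.0776). Apart from the calls of rno-miR-34b-3p, the cause of these changes was not tested. With 5 RPM in every library rno-miR-449a-5p was not tested.

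No paired analysis was possible because the replicate numbers name each rat once. With 3 rats a group, and with 4 of the 6 arms at a median of 3.21 RPM or less in the controls, the precision for the minor arms was low.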
